A study of Mus musculus with 4 samples.

Results

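The 32 genes described here encode the enzymes and transporters of glycolysis (18 enzymes, 4 transporters) and 10 genes of the hypoxia response. They were chosen by name, as gene symbols in the feature lists of the files, with earlier results of these data known. All 32 were found among 55357 gene entries. The cells were LSK cells (lineage-negative, Sca-1-positive, Kit-positive), a sorted bone marrow fraction in which haematopoietic stem cells and early progenitors are enriched. They came from wild-type mice (genotype WT) that received either vehicle (control) or Yoda1, a small-molecule agonist of the mechanosensitive ion channel Piezo1, by intraperitoneal injection for 2 weeks. Each group had 2 single-cell RNA-seq libraries, control 1 and control 2 against Yoda1 1 and Yoda1 2. No age, dose or number of animals per library is stated, and nothing says whether the libraries are separate mice. A p-value for Yoda1 against control therefore measures only the spread between libraries, which may be technical. Where cells were compared within libraries, with the library as a block, a p-value measures only the spread left once each library's own level is taken out. That spread may be technical too. Values below are given in the order control 1, control 2, Yoda1 1 and Yoda1 2.

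Glycolysis splits glucose into pyruvate in the cytosol and yields ATP without oxygen. Lactate dehydrogenase turns pyruvate into lactate and regenerates NAD, and monocarboxylate transporters carry lactate across the membrane. When oxygen is low, the transcription factor subunit HIF-1 alpha (Hif1a) escapes hydroxylation by the prolyl hydroxylases Egln1 and Egln3 and raises the transcription of many glycolytic genes through hypoxia response elements. Long-term stem cells of the bone marrow are known for a low mitochondrial activity and a reliance on glycolysis, and cell division is known to raise the demand for glycolytic intermediates.

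The core of a hypoxia response element, ACGTG or GCGTG, was searched on both strands in the 250 bases before each RefSeq gene start (RefSeq, build GRCm38.p6). Of the 29 members with a promoter in the table, 26 held at least 1 copy (89.7%), against 41.5% of all 27025 genes. Counted by promoter, 35 of 45 member promoters held a copy (77.8%), against 38.6% of all 32851 promoters of the same length. The promoters of members and of all genes were not matched for base composition. A copy of these letters is a description and not a bound site, and Eno2, Gpi1 and Tpi1 had none in this window. Bnip3l, Ndrg1 and Slc2a3 had no entry. The windows below are shown for members on which the later comparisons turn: both lactate dehydrogenases, which differed in opposite directions between stem-gated cells and the megakaryocyte and erythroid gates, 2 further members that changed with cycling, and Egln3. They are written 5' to 3' on the strand of the gene, with each core match in capitals; where matches on both strands overlap, the capitals read CACGTG.
Ldha (plus strand, chr7:46845640-46845684): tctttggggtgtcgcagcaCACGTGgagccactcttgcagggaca
Pgk1 (plus strand, chrX:106186930-106186974): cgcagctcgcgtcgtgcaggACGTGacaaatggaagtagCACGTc
Pdk1 (plus strand, chr2:71873126-71873170): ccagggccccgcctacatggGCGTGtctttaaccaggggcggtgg
Ldhb (minus strand, chr6:142508059-142508103): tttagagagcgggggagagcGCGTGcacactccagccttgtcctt
Egln3 (minus strand, chr12:54204079-54204123): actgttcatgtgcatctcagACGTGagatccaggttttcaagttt
Ldha and Bnip3 each had a start with 5 matches, the most among the members. Each CACGTG counts as 2 matches, 1 per strand, so both starts hold fewer separate sites, and the members are not ranked by sites. The gene bodies, in GENCODE M21 on GRCm38, lie at chr7:46841475-46855627 (Ldha), chr6:142490249-142507957 (Ldhb), chrX:106187100-106203699 (Pgk1), chr2:71873224-71903858 (Pdk1) and chr12:54178981-54203860 (Egln3). Each count refers to the whole gene, so exonic and intronic reads cannot be told apart.

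After cells with fewer than 500 genes, fewer than 1000 UMIs (unique molecular identifiers, 1 per captured RNA molecule) or more than 10% mitochondrial UMIs were left out, the libraries held 7620, 7822, 9122 and 9756 cells, with 89058521 to 110493533 UMIs per library and a median of 7311 to 11220 UMIs per cell. Any pair of libraries shared 14 to 30 barcodes (0.170% to 0.352% of the smaller). Kit was detected at 98.4 to 156 counts per 1000000 UMIs (CPM) and Ly6a, which encodes Sca-1, at 97.9 to 262, whereas Cd3e, Ms4a1, Ly6g, Cdh5 and Col1a1, markers of cells that the sort should lack, were each at or below 0.563 CPM in every library; haemoglobin (Hbb-bs) was at 7.21 to 55.4 CPM. Cells were assigned to marker gates by raw UMIs. Stem cells had at least 1 UMI of Hlf and at least 1 of Procr or Mecom; other gates used markers of megakaryocyte, erythroid, granulocyte, monocyte and dendritic, and lymphoid priming, and the Flt3 gate held Flt3-positive cells of no other gate. The library Yoda1 2 stood apart in its makeup: 38.2% of its cells were in the stem gate, against 11.1%, 13.3% and 13.4% in control 1, control 2 and Yoda1 1, and 47.7% of its cells were cycling (at least 2 UMIs of 8 mitotic genes), against 59.5% to 74.0%.

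The members together made up 51.1, 49.9, 51.0 and 44.8 of every 10000 UMIs over all cells. Granulocyte-gated cells had the highest level, with 61.3, 63.0, 63.0 and 71.4 member UMIs per 10000, above every other gate in every library. Erythroid- and lymphoid-gated cells were lowest: the former had 40.3, 38.0, 37.9 and 40.3 and the latter 42.8, 38.2, 39.8 and 41.5, and neither reached the stem value of its library. Stem-gated cells held 46.6, 44.1, 45.3 and 43.0, megakaryocyte-gated cells 46.1, 44.1, 44.6 and 44.8, monocyte and dendritic gated cells 49.0, 44.8, 49.6 and 41.9 and Flt3-gated cells 45.8, 42.7, 43.5 and 44.7, and these ranges overlap, so that no order among them is given. Each value is a share of the captured UMIs and not an amount of RNA per cell. The 18 enzymes set these sums, and Gapdh alone gave 25.2% to 27.6% of the member UMIs in the 4 libraries. The 10 hypoxia response genes were on a scale of their own, with 3.54, 3.88, 3.33 and 3.87 UMIs per 10000 in stem-gated cells and 2.74, 2.94, 2.59 and 2.73 in erythroid-gated cells, below every stem value.

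**Figure D1:**
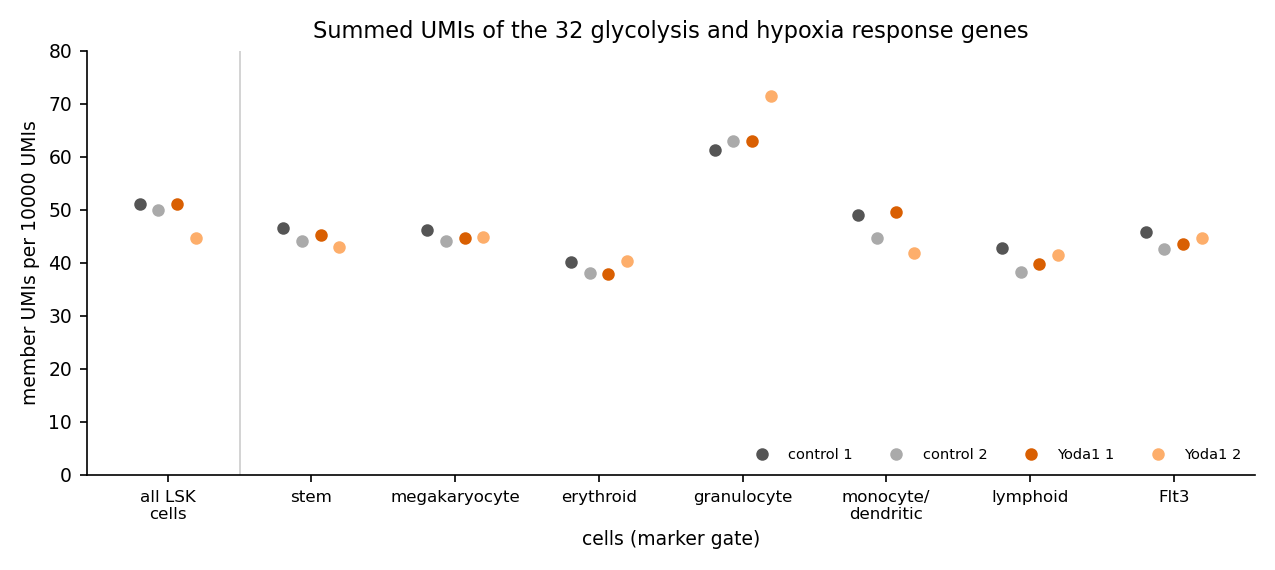
Summed UMIs of the 32 members per 10000 UMIs (vertical axis) in all LSK cells and in 7 marker gates (horizontal axis), 1 point per library. The 4 granulocyte-gated points lie between 61.3 and 71.4, above the points of every other gate, and the Yoda1 2 point for all cells (44.8) lies below the other 3 libraries.

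To ask how the pathway differs between lineages, each gate was compared with stem-gated cells in 1 fit with the library as a block (edgeR quasi-likelihood test on summed counts, Benjamini-Hochberg adjustment over 13398 genes, threshold 0.05). All 6 comparisons share the stem-gated cells, so they are not independent of each other. Gates also differed in their share of cycling cells. Stem-gated cells had 69.2%, 50.1%, 61.6% and 47.0%, and granulocyte-gated cells 75.7%, 72.5%, 85.4% and 79.1%. Erythroid-gated cells had 74.6%, 63.1%, 77.7% and 74.5%, and lymphoid-gated cells 55.1%, 38.0%, 59.0% and 48.3%. Lineage and cycling were not separated in these comparisons. Eno2, the neuronal enolase, did not pass the filter on low counts (0.068 to 0.552 CPM over all cells), which left 31 members. Granulocyte-gated cells differed most to one side: 20 members were higher and 5 lower than in stem-gated cells, where 25.4% of all genes were higher and 32.2% lower, and the median log2 fold change was 0.60 over the members against -0.093 over all genes. In erythroid-gated cells 9 members were higher and 19 lower (all genes 32.2% and 40.7%), with a median of -0.31. Megakaryocyte-gated cells had 10 higher and 11 lower (21.3% and 26.1%), and monocyte and dendritic gated cells 11 higher and 10 lower (23% and 23.7%). Lymphoid-gated cells had 3 higher and 9 lower (12.8% and 15.1%). Flt3-gated cells were nearest to stem-gated cells, with 3 higher and 2 lower (1.72% and 4.08%), and none of these 5 calls held in each fit that left out 1 library: without control 1 or control 2 no member was called, and without Yoda1 1 only Pfkl was (adjusted p of the lost calls 0.0581 to 0.420).
With library totals alone as the scaling, the median of all genes moved from -0.093 to -0.30 in the erythroid, from -0.093 to -0.34 in the granulocyte and from -0.039 to -0.25 in the monocyte and dendritic comparison. The members then split into 8 higher and 13 lower in megakaryocyte-gated cells, 6 and 20 in erythroid-gated cells and 18 and 9 in granulocyte-gated cells. It was 7 and 13 in monocyte and dendritic gated cells, 3 and 14 in lymphoid-gated cells and 1 and 2 in Flt3-gated cells. The shares of all genes called under this scaling are not given here, so these splits are not a result about the members. Of the stem-gated cells, 55.3%, 44.8%, 37.0% and 29.4% also passed another lineage gate. With those cells left out, a choice made after seeing the data, the granulocyte comparison kept all 25 calls, the erythroid comparison 26 of 28, the megakaryocyte comparison 19 of 21, the monocyte and dendritic comparison all 21 and the lymphoid comparison, in the same direction, 9 of 12. The Flt3 comparison kept 1 of 5 calls (Egln3). In it, 8 members not called before were called. In the first 5 comparisons the lost calls were Gpi1 and Pgam1 in megakaryocyte-gated, Gpi1 and Pgk1 in erythroid-gated and Aldoa and Slc16a1 in lymphoid-gated cells, and Ldha in lymphoid-gated cells was called in the opposite direction.

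**Figure D2:**
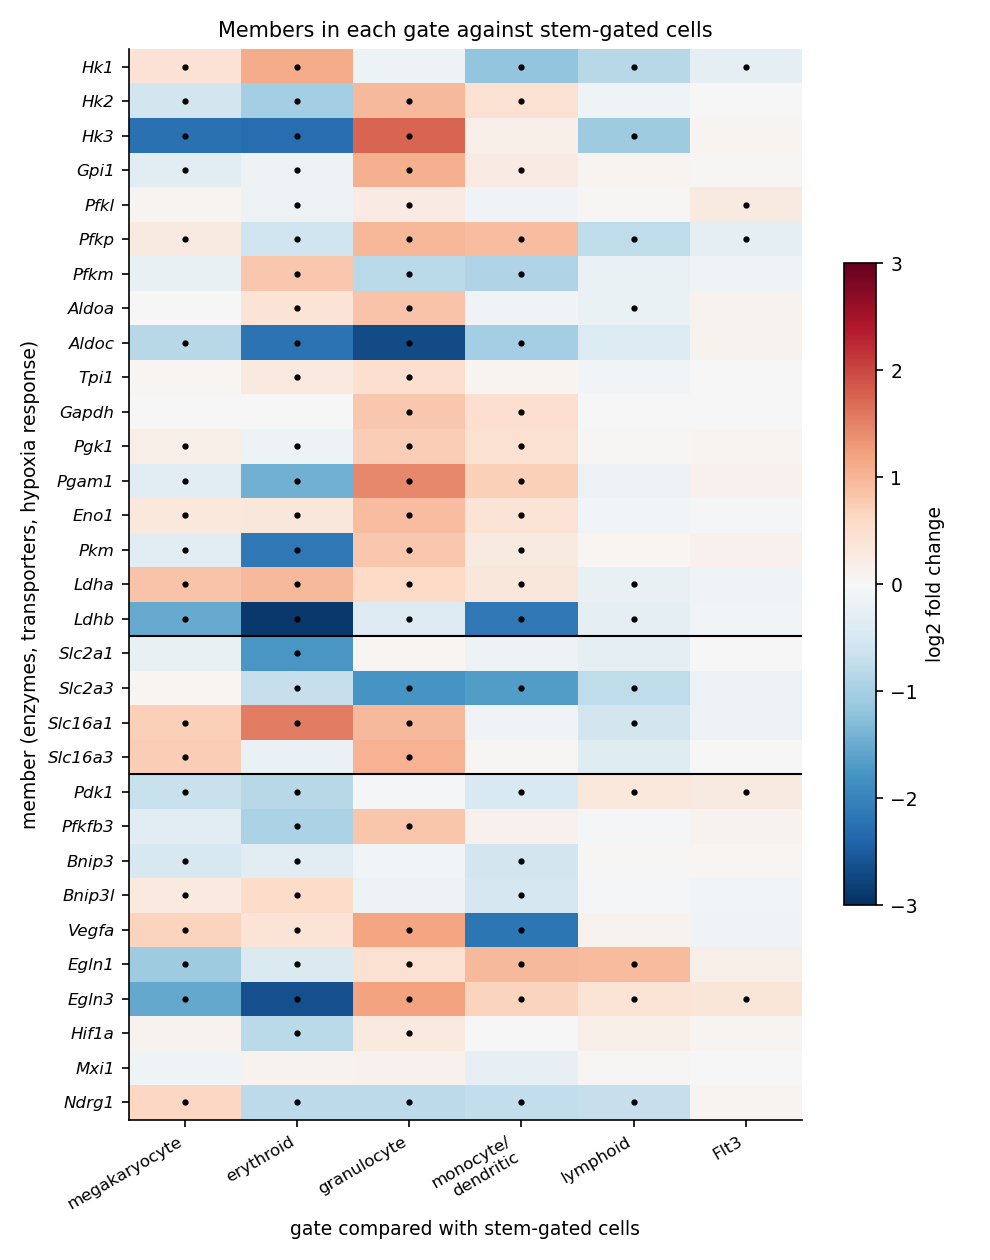
Log2 fold change of 31 members (rows, ordered as enzymes, transporters and hypoxia response genes, divided by lines) in each gate against stem-gated cells (columns); red is higher and blue lower than in stem-gated cells, and a dot marks an adjusted p under 0.05. The granulocyte column is mostly red in the enzymes, with 13 of 17 higher, and Ldhb and Egln3 are blue in the megakaryocyte and erythroid columns.

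The hexokinases, which trap glucose in the cell by phosphorylation, differed by isoform. Hk3, an isoform known from myeloid cells, was at 36.9, 33.3, 33.2 and 21.8 CPM in stem-gated cells and 98.3, 101, 73.6 and 98.0 CPM in granulocyte-gated cells. The 4 granulocyte values all lay above the 4 stem values (log2 fold change 1.74, SE 0.11, adjusted p = 6.98e-14). In erythroid-gated cells Hk3 fell to 6.84, 4.40, 6.62 and 1.66 CPM (log2 fold change -2.28, SE 0.15, adjusted p = 8.87e-15), and in megakaryocyte-gated cells it was at 9.94, 5.64, 5.42 and 4.64 CPM (log2 fold change -2.24, SE 0.18, adjusted p = 1.14e-11). Hk1, the widely expressed isoform, ran the other way, with 101, 70.8, 86.6 and 69.8 CPM in stem-gated and 167, 137, 158 and 159.6 CPM in erythroid-gated cells. All erythroid values were above all stem values (log2 fold change 1.12, SE 0.066, adjusted p = 1.64e-15). It was lower in monocyte and dendritic gated cells (41.8, 24.8, 34.3 and 18.7 CPM; log2 fold change -1.18, SE 0.10, adjusted p = 2.47e-11) and in lymphoid-gated cells (48.9, 40.3, 44.4 and 38.9 CPM; log2 fold change -0.84, SE 0.073, adjusted p = 1.11e-10). As a share of hexokinase UMIs, Hk1 made up 90.9%, 90.5%, 89.2% and 93.7% in erythroid-gated cells and 33.0%, 28.9%, 35.2% and 31.8% in granulocyte-gated cells. Hk3 gave 47.4%, 51.2%, 40.3% and 48.5% of them in granulocyte-gated and 3.72%, 2.91%, 3.74% and 0.976% in erythroid-gated cells, so the predominant hexokinase UMIs differed between these gates in every library. Hk2, the isoform induced by HIF-1 and insulin in other tissues, was higher in granulocyte-gated cells (log2 fold change 0.97, SE 0.078, adjusted p = 8.06e-12) and lower in erythroid-gated cells (log2 fold change -1.03, SE 0.083, adjusted p = 2.23e-12).

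Phosphofructokinase sets the first committed step of glycolysis and also has 3 isoforms. Pfkm, the muscle isoform, was at 17.8, 15.8, 15.9 and 17.1 CPM in stem-gated and 27.6, 21.3, 25.5 and 27.4 CPM in erythroid-gated cells, without overlap (log2 fold change 0.81, SE 0.086, adjusted p = 7.58e-10), although the call was lost when cells were thinned to 3000 UMIs, before gating (adjusted p = 0.529) or after it (adjusted p = 0.219). In granulocyte-gated cells it was at 7.88, 8.60, 6.89 and 11.7 CPM, below every stem value (log2 fold change -0.81, SE 0.12, adjusted p = 1.38e-06). Pfkp, the platelet isoform, was higher in granulocyte-gated (52.8, 43.7, 48.3 and 59.5 CPM; log2 fold change 1.005, SE 0.086, adjusted p = 3.57e-11) and in monocyte and dendritic gated cells (46.8, 46.9, 40.7 and 63.1 CPM; log2 fold change 0.92, SE 0.10, adjusted p = 4.52e-09) than in stem-gated cells (32.5, 25.5, 31.2 and 28.1 CPM). Lymphoid-gated cells were below them, with 18.2, 14.9, 15.2 and 17.3 CPM (log2 fold change -0.75, SE 0.091, adjusted p = 8.95e-08). Pfkm accounted for 26.1%, 23.0%, 24.1% and 28.0% of phosphofructokinase UMIs in erythroid-gated cells and 5.45%, 6.95%, 5.20% and 8.55% in granulocyte-gated cells. Pfkl, the liver isoform, gave the most UMIs of the family over all cells (58.5%, 58.2%, 59.9% and 65.6%), and its calls against stem-gated cells were small, from -0.15 in erythroid-gated to 0.26 in Flt3-gated cells on the log2 scale. Each share is of UMIs that are not corrected for transcript length, so that it can be compared between gates but does not rank the isoforms. Pfkfb3, which makes the allosteric activator of phosphofructokinase, was at 9.64, 12.4, 11.2 and 13.1 CPM in stem-gated cells and 19.5, 17.9, 13.4 and 21.0 CPM in granulocyte-gated cells (log2 fold change 0.82, SE 0.11, adjusted p = 3.83e-07). It was lower in erythroid-gated cells, at 5.13, 5.10, 5.19 and 4.16 CPM (log2 fold change -0.96, SE 0.12, adjusted p = 2.35e-08).

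The enzymes between fructose and pyruvate were mostly higher in granulocyte-gated cells. Pgam1, the phosphoglycerate mutase, was at 316, 319, 316 and 269.9 CPM in stem-gated cells and 652, 723, 677 and 753 CPM in granulocyte-gated cells, more than any stem value in every library (log2 fold change 1.44, SE 0.076, adjusted p = 1.12e-15). It fell to 98.2, 97.6, 99.7 and 90.2 CPM in erythroid-gated cells (log2 fold change -1.45, SE 0.079, adjusted p = 2.1e-16) and was higher in monocyte and dendritic gated cells (log2 fold change 0.72, SE 0.077, adjusted p = 4.61e-09). Gpi1, the phosphoglucose isomerase, was at 414, 386, 369 and 345 CPM in stem-gated and 665, 649, 612 and 784 CPM in granulocyte-gated cells (log2 fold change 1.07, SE 0.064, adjusted p = 1.38e-14). Pkm, the pyruvate kinase of most tissues, dropped from 427, 404, 436 and 438 CPM in stem-gated cells to 78.7, 75.2, 94.1 and 86.4 CPM in erythroid-gated cells, with a wide gap between the groups (log2 fold change -2.15, SE 0.064, adjusted p = 6.49e-22). Pklr, the liver and red cell pyruvate kinase, which is not one of the 32 members, was at 29.0, 28.1, 22.0 and 33.2 CPM in the same erythroid-gated cells and at 4.86, 1.13, 1.58 and 0.347 CPM in stem-gated cells (log2 fold change 4.23, SE 0.30, adjusted p = 1.25e-13). Gapdh, Pgk1, Eno1, Aldoa and Tpi1, which carry the central steps, were all higher in granulocyte-gated cells, by 0.81, 0.74, 0.93, 0.87 and 0.50 on the log2 scale. In erythroid-gated cells Gapdh did not pass the test (log2 fold change 0.017, SE 0.061, adjusted p = 0.816), while Aldoa and Eno1 were higher (0.41 and 0.34); with library totals as the scaling the Eno1 call was lost (adjusted p = 0.128). Gpi1 and Pgk1 were called slightly lower there (-0.16 and -0.15) and turned to 0.061 and 0.085 with cells thinned before gating. Annotated copies of these genes that could take up reads were scarce: Eno1b reached 1.66 CPM and 15 other copies at most 0.269 CPM in any library.

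Lactate dehydrogenase gave the largest fitted difference of any member, that of Ldhb between erythroid- and stem-gated cells. Ldhb encodes the heart-type subunit, known to favour the step from lactate to pyruvate, and Ldha the muscle-type subunit, known to favour the opposite step. Ldhb was at 59.8, 76.3, 53.3 and 105 CPM in stem-gated cells. In erythroid-gated cells it was at 6.57, 7.30, 7.97 and 12.9 CPM, below every stem value (log2 fold change -2.90, SE 0.10, adjusted p = 1.38e-20). It was also lower in monocyte and dendritic gated cells (14.7, 15.3, 10.97 and 10.8 CPM; log2 fold change -2.15, SE 0.13, adjusted p = 3.1e-14) and in megakaryocyte-gated cells (18.5, 22.8, 20.2 and 38.1 CPM; log2 fold change -1.51, SE 0.10, adjusted p = 1.12e-13). In granulocyte-gated cells the difference was smaller (log2 fold change -0.38, SE 0.089, adjusted p = 0.00051), with 44.0, 48.1, 35.5 and 53.6 CPM. Flt3-gated cells, at 64.3, 71.3, 45.0 and 89.5 CPM, were not called (log2 fold change -0.089, SE 0.081, adjusted p = 0.681). Ldha moved in the opposite direction in both of the megakaryocyte and erythroid gates: it was at 538, 435, 499.7 and 365 CPM in stem-gated cells, 842, 799, 833 and 723 CPM in megakaryocyte-gated cells (log2 fold change 0.86, SE 0.081, adjusted p = 3.17e-10) and 817, 769, 741 and 799 CPM in erythroid-gated cells (log2 fold change 0.98, SE 0.081, adjusted p = 3.41e-12). In lymphoid-gated cells Ldha was called lower (log2 fold change -0.22, SE 0.081, adjusted p = 0.0375), but that sign turned with stem-gated cells of no other gate (0.17). Ldhb therefore made up 10.0%, 14.9%, 9.65% and 22.3% of lactate dehydrogenase UMIs in stem-gated cells, but 2.15%, 2.77%, 2.37% and 5.01% in megakaryocyte-gated and 0.798%, 0.941%, 1.06% and 1.59% in erythroid-gated cells. Among stem-gated cells of no other gate the share was 20.1%, 24.3%, 15.5% and 25.9%. Libraries differed within the stem gate too, and Yoda1 2 had the highest share there, with an exact 95% binomial interval of 21.7% to 22.9% against 9.34% to 10.7% in control 1; these intervals cover counting error only.

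**Figure D3:**
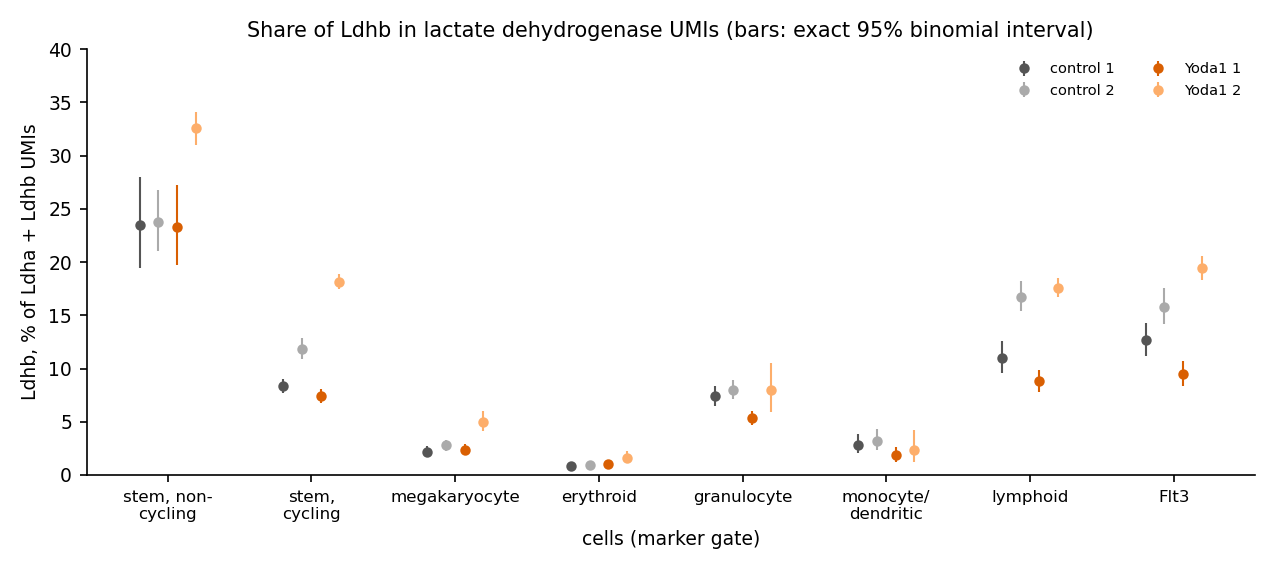
Ldhb as a percentage of Ldha and Ldhb UMIs (vertical axis) in non-cycling and cycling stem-gated cells and in 6 other gates, 1 point per library with its exact 95% binomial interval. The non-cycling stem-gated points lie between 23.3% and 32.6%, and the erythroid points between 0.798% and 1.59%.

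Among the transporters, the lactate carrier Slc16a1 (MCT1) was at 22.5, 18.9, 19.1 and 16.4 CPM in stem-gated and 47.5, 48.0, 46.8 and 49.5 CPM in erythroid-gated cells, without overlap (log2 fold change 1.53, SE 0.10, adjusted p = 6.05e-15). It was also higher in megakaryocyte-gated cells (32.8, 28.0, 29.8 and 30.2 CPM; log2 fold change 0.73, SE 0.11, adjusted p = 3.75e-06). Slc16a3 (MCT4), the carrier known from strongly glycolytic cells, stayed between 1.61 and 8.27 CPM in the 7 gates and was higher in granulocyte-gated cells (log2 fold change 1.04, SE 0.21, adjusted p = 0.000122), a call lost with cells thinned before gating (adjusted p = 0.0783). The high-affinity glucose transporter Slc2a3 (GLUT3) was at 26.6, 36.5, 24.1 and 40.8 CPM in stem-gated cells and, overlapping with them, at 29.6, 38.7, 24.6 and 34.5 CPM in megakaryocyte-gated cells. Granulocyte-gated cells held 7.16, 8.77, 6.76 and 5.83 CPM, below every stem value (log2 fold change -1.78, SE 0.14, adjusted p = 3.9e-12), and monocyte and dendritic gated cells 8.90, 6.39, 10.97 and 4.93 CPM (log2 fold change -1.67, SE 0.17, adjusted p = 1.16e-09). Lymphoid-gated cells were also lower (16.1, 21.9, 12.0 and 21.0 CPM; log2 fold change -0.77, SE 0.10, adjusted p = 3.91e-07), in each library below the stem value of that library. Slc2a1 (GLUT1), the basal glucose transporter, was at 9.08, 8.78, 9.39 and 9.85 CPM in stem-gated cells and lower in erythroid-gated cells (2.19, 1.60, 2.70 and 4.16 CPM; log2 fold change -1.74, SE 0.15, adjusted p = 7.74e-12). Granulocyte-gated cells, in which 13 of 17 tested enzymes were higher than in stem-gated cells, thus had less Slc2a3.

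The hypoxia response genes did not move as a block. Both oxygen-sensing hydroxylases differed between lineages: Egln1 was at 41.0, 41.1, 39.9 and 44.6 CPM in stem-gated cells and 82.5, 67.8, 76.9 and 76.7 CPM in lymphoid-gated cells (log2 fold change 0.94, SE 0.077, adjusted p = 2.68e-11), and it was also higher in monocyte and dendritic gated cells (69.7, 71.0, 77.2 and 58.2 CPM; log2 fold change 0.98, SE 0.093, adjusted p = 3.84e-10). Megakaryocyte-gated cells had 16.9, 16.7, 21.3 and 22.2 CPM, below every stem value (log2 fold change -1.07, SE 0.10, adjusted p = 7.06e-10). Egln3, itself a HIF target, was at 14.8, 17.2, 11.7 and 11.8 CPM in stem-gated cells, 30.6, 32.4, 22.2 and 23.3 CPM in granulocyte-gated cells (log2 fold change 1.20, SE 0.11, adjusted p = 1.21e-10) and 2.24, 1.80, 1.99 and 0.831 CPM in erythroid-gated cells (log2 fold change -2.64, SE 0.15, adjusted p = 4.89e-16). In megakaryocyte-gated cells it was at 5.64, 5.04, 4.79 and 2.65 CPM, again below every stem value (log2 fold change -1.53, SE 0.16, adjusted p = 2.74e-09). Its call in monocyte and dendritic gated cells (log2 fold change 0.66, SE 0.14, adjusted p = 0.000176) turned to -0.29 when every cell was thinned to 3000 UMIs before gating and was lost when it was thinned after gating (0.33, adjusted p = 0.400), and its call in lymphoid-gated cells was lost without control 2 (adjusted p = 0.0509).

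The other hypoxia response genes also had calls in both directions. Ndrg1, a differentiation and stress response gene induced by hypoxia, was at 66.4, 80.9, 52.6 and 61.1 CPM in stem-gated and 114, 116, 80.2 and 78.6 CPM in megakaryocyte-gated cells (log2 fold change 0.63, SE 0.070, adjusted p = 1.09e-08). It was at 33.1, 35.3, 30.7 and 23.3 CPM in granulocyte-gated cells, below every stem value (log2 fold change -0.80, SE 0.082, adjusted p = 1.62e-09). Pdk1, the kinase that closes the entry of pyruvate into mitochondria, was at 45.3, 51.8, 49.3 and 60.5 CPM in stem-gated cells, higher in lymphoid-gated (65.6, 57.4, 58.7 and 62.7 CPM; log2 fold change 0.31, SE 0.064, adjusted p = 0.000329; with cells thinned before or after gating, adjusted p = 0.682 and 0.188) and lower in erythroid-gated cells (23.9, 26.2, 24.1 and 25.8 CPM; log2 fold change -0.84, SE 0.069, adjusted p = 3.48e-12). Bnip3l (NIX), the receptor for mitochondrial clearance in red cell maturation, was at 98.9, 104, 87.9 and 102 CPM in stem-gated and 128, 132, 112 and 123 CPM in erythroid-gated cells (log2 fold change 0.55, SE 0.061, adjusted p = 2.26e-09), and it was lower in monocyte and dendritic gated cells (-0.51). Its paralogue Bnip3, at 13.9, 13.4, 13.2 and 15.2 CPM in stem-gated cells, was lower in erythroid-gated cells (log2 fold change -0.31, SE 0.12, adjusted p = 0.0159), but not with every gene kept or with cells thinned after gating (adjusted p = 0.0706 and 0.0705). Hif1a was at 32.3, 32.7, 32.4 and 40.9 CPM in stem-gated and 15.5, 16.6, 17.5 and 20.4 CPM in erythroid-gated cells, without overlap (log2 fold change -0.80, SE 0.086, adjusted p = 9.2e-10). Its higher value in granulocyte-gated cells (log2 fold change 0.28, SE 0.088, adjusted p = 0.00671) was not called without control 2 (adjusted p = 0.0566). Mxi1, a Myc antagonist, was called in none of the 6 comparisons, with log2 fold changes from -0.24 to 0.12. Vegfa, the angiogenic factor, was low throughout (0.354 to 9.33 CPM in the 7 gates); it was higher in granulocyte-gated (log2 fold change 1.18, SE 0.20, adjusted p = 1.09e-05) and lower in monocyte and dendritic gated cells (log2 fold change -2.17, SE 0.47, adjusted p = 0.000287), where it rested on 1 or 2 UMIs per library.
When 1 library was left out, 6 megakaryocyte, 4 erythroid, 1 granulocyte, 2 monocyte and dendritic and 4 lymphoid calls were lost at least once, at adjusted p-values from 0.0505 to 0.343. Among the calls given above these were Gpi1 and Pgk1 (without control 1, control 2 or Yoda1 1) and Pfkl (without control 1 or Yoda1 2) in erythroid-gated, Hif1a (without control 2) in granulocyte-gated, and Ldha (without control 1, control 2 or Yoda1 1) and Egln3 (without control 2) in lymphoid-gated cells. Ldhb in lymphoid-gated cells (without Yoda1 1), and Aldoc, Bnip3, Pfkp, Vegfa, Slc16a3 and Pgk1 in megakaryocyte-gated cells (without control 2, Yoda1 1 or Yoda1 2), were among the rest. Aldoc, at 5.74, 5.95, 8.37 and 10.2 CPM in stem-gated cells, was lower in the granulocyte (log2 fold change -2.68, SE 0.36, adjusted p = 1.57e-07) and erythroid gates (log2 fold change -2.20, SE 0.26, adjusted p = 6.12e-09).

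Of 69 other genes of these pathways, 53 could be tested in the gates. The pentose phosphate pathway, which branches from glycolysis to make NADPH and ribose, had 7 of 7 genes higher in granulocyte-gated cells (25.4% of all genes were higher), with Pgd at a log2 fold change of 1.15 (SE 0.085) and Pgls at 0.86 (SE 0.069). In erythroid-gated cells 6 of 7 were higher (32.2% of all genes), among them Rpia at 1.08 (SE 0.078). In lymphoid-gated cells 1 was higher (Pgls) and 1 lower (Rpia). Of 8 pyruvate entry genes, 5 were higher and none lower in erythroid-gated cells, and 4 were higher and 1 lower in granulocyte-gated cells, where the mitochondrial pyruvate carrier subunit Mpc1 differed by 0.98 (SE 0.070) and the kinase Pdk2 by -0.81 (SE 0.17). Of 14 tested HIF targets outside the members, 5 were higher and 5 lower in erythroid-gated cells, 5 and 4 in granulocyte-gated cells and 2 and 3 in megakaryocyte-gated cells. Of all genes, 32.2% were higher and 40.7% lower in erythroid-gated, 25.4% and 32.2% in granulocyte-gated and 21.3% and 26.1% in megakaryocyte-gated cells. These counts were near the background. P4ha1, a collagen prolyl hydroxylase, was lower in megakaryocyte-gated (-0.90, SE 0.12) and erythroid-gated cells (-1.36, SE 0.11), and Ddit4, an inhibitor of mTORC1, was lower in granulocyte-gated cells (-1.68, SE 0.25).

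Within the stem gate, 585, 520, 753 and 1748 cells had at least 2 UMIs of the 8 mitotic genes. These cycling cells were compared with cells without any (143, 319, 229 and 1290 cells). The classes also differed in lineage priming. Of the cycling cells 187, 215, 391 and 1020 passed no other gate, and of the non-cycling cells 110, 221, 187 and 1052. The values that follow do not separate cycling from lineage priming. Of 31 members, 12 were higher and 8 lower in cycling cells, where 20.7% and 17.5% of all genes were higher and lower. The higher members were 11 enzymes and 1 transporter, and the 8 lower ones were 3 enzymes, both glucose transporters and 3 hypoxia response genes. Ldha was at 379, 339, 322 and 297 CPM in non-cycling and 560.5, 482, 544 and 393 CPM in cycling cells, higher in cycling cells in every library (log2 fold change 0.63, SE 0.052, adjusted p = 1.9e-15). Pgk1 was at 192, 174, 165 and 192 CPM in non-cycling and 268, 241, 261 and 259 CPM in cycling cells, without overlap (log2 fold change 0.58, SE 0.059, adjusted p = 2.72e-12). Pgam1 rose from 255, 238, 203 and 227 to 322, 348, 342 and 287 CPM, also without overlap (log2 fold change 0.57, SE 0.059, adjusted p = 6.18e-12). Gapdh and Tpi1 were higher by 0.55 and 0.55 on the log2 scale. Slc16a1, the lactate carrier, was at 8.67, 10.6, 11.5 and 12.6 CPM in non-cycling and 23.7, 21.8, 21.3 and 18.3 CPM in cycling cells (log2 fold change 0.84, SE 0.14, adjusted p = 2.96e-06).
Ldhb ran against this group. It was at 116, 106, 97.9 and 143 CPM in non-cycling and 50.9, 64.8, 43.4 and 87.2 CPM in cycling cells, lower in cycling cells in every library (log2 fold change -0.80, SE 0.081, adjusted p = 3.19e-12). Its share of lactate dehydrogenase UMIs was 23.5%, 23.8%, 23.3% and 32.6% in non-cycling and 8.33%, 11.8%, 7.39% and 18.2% in cycling cells. Aldoa, the main aldolase of most tissues, fell from 383, 399.6, 406 and 412 to 289.6, 282, 311 and 244 CPM (log2 fold change -0.45, SE 0.056, adjusted p = 1.44e-09), and Aldoc, the brain-type aldolase, from 18.6, 13.7, 14.0 and 13.5 to 3.64, 2.76, 5.97 and 7.45 CPM (log2 fold change -1.25, SE 0.20, adjusted p = 4.48e-07). In both cases every cycling value lay below every non-cycling value. The glucose transporter Slc2a3 was at 31.0, 48.2, 37.8 and 54.9 CPM in non-cycling and 25.2, 28.9, 20.9 and 34.2 CPM in cycling cells (log2 fold change -0.60, SE 0.10, adjusted p = 2.21e-06), lower in every library. Pdk1 went from 59.5, 68.0, 58.4 and 68.8 CPM to 42.5, 45.3, 45.5 and 55.3 CPM (log2 fold change -0.33, SE 0.090, adjusted p = 0.00243). Bnip3l was also lower in cycling cells (log2 fold change -0.35, SE 0.071, adjusted p = 6.39e-05), and Pfkfb3 was called in the full fit (log2 fold change -0.40, SE 0.15, adjusted p = 0.0296) but not without control 2, Yoda1 1 or Yoda1 2 (adjusted p = 0.0569, 0.0997 and 0.105). The calls of Hk1 (without control 1 or control 2), Slc2a1 (without control 1, Yoda1 1 or Yoda1 2) and Hk3 (without any 1 of the 4 libraries) were likewise lost, at adjusted p-values up to 0.422. The 10 hypoxia response genes together had 4.32, 4.70, 3.90 and 4.22 UMIs per 10000 in non-cycling and 3.41, 3.61, 3.20 and 3.72 in cycling cells, lower in every library. The 18 enzymes together had 36.4, 34.0, 34.4 and 35.6 in non-cycling and 43.2, 41.8, 43.3 and 39.5 in cycling cells, higher in every library.

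**Figure D4:**
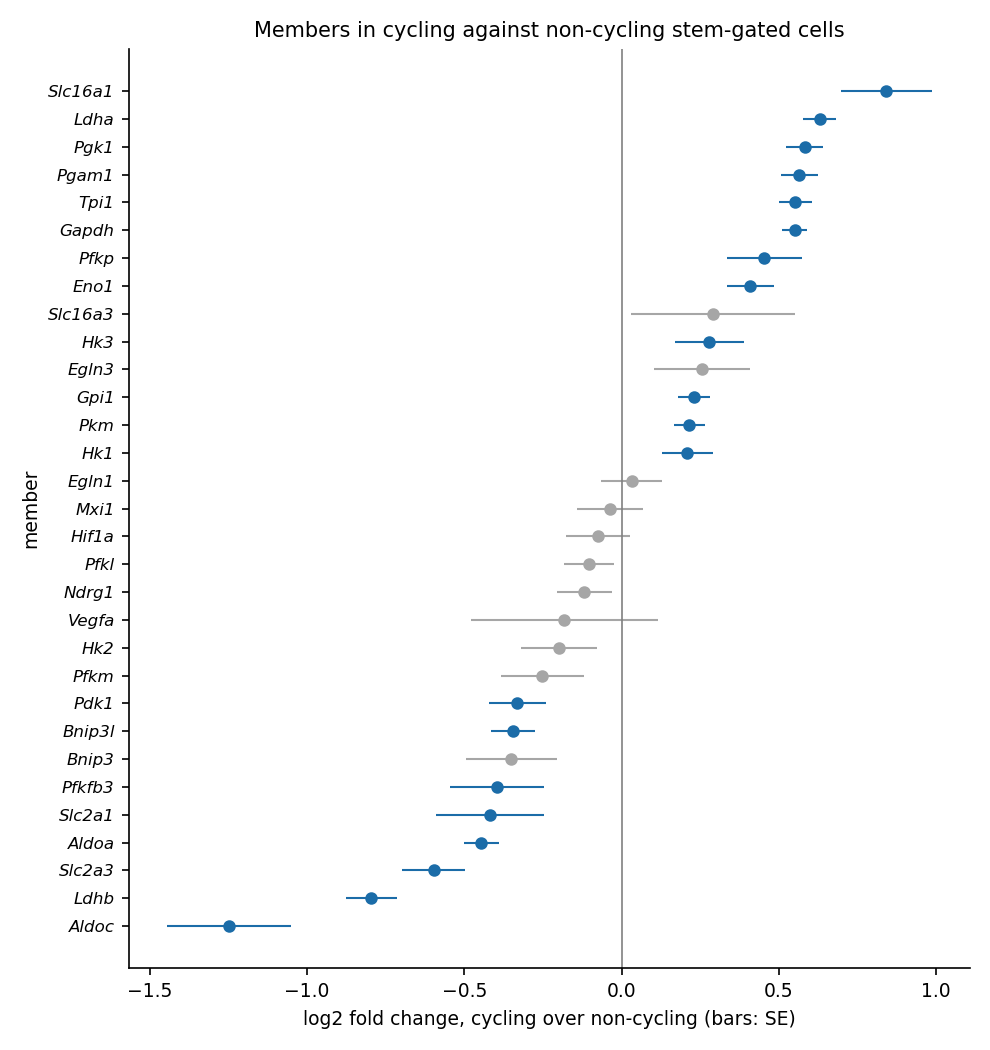
Log2 fold change of 31 members (vertical axis) in cycling over non-cycling stem-gated cells, with the SE as a bar; blue points have an adjusted p under 0.05 and grey points do not. Slc16a1, Ldha, Pgk1 and Pgam1 lie farthest to the higher side among the called members, and Aldoc, Ldhb, Slc2a3 and Aldoa farthest to the lower side.

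Cycling cells were deeper: their median was 14206, 11570, 10731 and 12361.5 UMIs, against 5286, 5567, 4862 and 5610.5 in non-cycling cells, and a class set by at least 2 UMIs takes up deep cells. With the classes kept and each cell then thinned to 3000 UMIs, an alternative added after seeing the data, 16 of the 20 calls held and no called member changed sign. With cells thinned before gating, which left 66 to 313 cycling cells per library, only 9 of 25 members tested were called, 2 higher and 7 lower. The share of all genes called with this thinning is not given here, so the split is not a result about the members. Of the 20 original calls 8 held, 9 were lost, among them Ldha, Pgk1 and Pgam1, and Eno1, Pkm and Hk3 changed sign; Ldhb, Aldoa, Aldoc, Slc2a3, Bnip3l, Pdk1, Gapdh and Tpi1 kept their calls. In that setting the member UMIs per 10000 were 42.3, 39.4, 38.9 and 40.01 in non-cycling and 41.2, 37.7, 36.1 and 40.4 in cycling cells, against 41.3, 39.4, 39.0 and 40.6 in non-cycling and 47.2, 46.1, 47.1 and 43.9 in cycling cells without thinning, so the sum was not higher in 3 of 4 libraries. Among stem-gated cells of no other gate, 15 of 20 calls held and none changed sign. With library totals alone as the scaling, 10 members were higher and 10 lower, and the shares of all genes called under it are not given here. Of 7 pentose phosphate genes, 4 were higher and none lower in cycling cells, with Pgls at 0.53 (SE 0.050) and Tkt at 0.37 (SE 0.047). Ddit4 (-0.93, SE 0.12) and Hilpda, a lipid droplet gene induced by hypoxia (-0.41, SE 0.11), were lower, and Higd1a, a mitochondrial gene also induced by hypoxia, was higher (0.48, SE 0.070).

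No member passed the test between Yoda1 and control. Over all LSK cells, 0 of 32 members and 0 of 18182 genes (0%) were called by edgeR. DESeq2 and limma-voom also called 0 members. At an unadjusted p under 0.05 the count was 1 member by edgeR and 309 genes. The median log2 fold change was -0.074 over the members and 0.0050 over all genes. In sums over all cells, fewer cells of a type and less RNA per cell cannot be told apart, and the library Yoda1 2 held more stem-gated and fewer cycling cells than the other 3. When each class of cells was given its share of UMIs over all 4 libraries, the member UMIs were 50.1, 48.8, 49.6 and 48.8 per 10000, with a narrower range than the 51.1, 49.9, 51.0 and 44.8 of the plain sums.
Of 27 members with a mean of at least 10 CPM, Pkm was above both controls in both Yoda1 libraries (7.15% of 8378 genes at that level were), and Egln3, Gpi1 and Hk3 were below both (10.3%). Egln3 was at 15.6, 19.1, 12.9 and 12.5 CPM (log2 fold change -0.48, SE 0.20, adjusted p = 1). Pkm was at 433, 422, 436 and 439.9 CPM. Gpi1 was at 472, 460.1, 419 and 367 CPM (log2 fold change -0.28, SE 0.23, adjusted p = 1). Hk3 was at 44.1, 40.6, 38.1 and 21.4 CPM, and most of the difference lay in Yoda1 2 (log2 fold change -0.52, SE 0.33, adjusted p = 1). Ldhb, at 33.0, 44.5, 27.7 and 84.0 CPM, was highest in Yoda1 2 and lowest in Yoda1 1, so the groups overlapped (log2 fold change 0.44, SE 0.41, adjusted p = 1). Aldoc was at 2.74, 2.57, 3.56 and 8.03 CPM (log2 fold change 1.04, SE 0.37, adjusted p = 1). Ldhb, Aldoc and Hk3 were called when Yoda1 1 was left out, with log2 fold changes of 0.96 for Ldhb (adjusted p = 0.00310), 1.43 for Aldoc (0.00339) and -1.15 for Hk3 (0.00131), where the lone Yoda1 library is assumed to vary like the others. The fit then compares Yoda1 2 alone with the controls.

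The remaining members from 10 CPM up overlapped between the groups over all cells. Among the enzymes, Ldha was at 652, 565, 632 and 427 CPM, lowest in Yoda1 2, and Pgam1 at 396, 421, 429.9 and 295 CPM, with the same library lowest. Gapdh was at 1286, 1380.5, 1368 and 1171 CPM, and Aldoa at 361, 365, 389.8 and 311. Hk1, the widely expressed hexokinase, was at 102, 70.4, 83.9 and 64.5 CPM and Hk2, the inducible one, at 25.2, 23.6, 31.2 and 20.7 CPM. The phosphofructokinases Pfkl, Pfkm and Pfkp were at 72.9, 62.7, 71.0 and 82.0 CPM, at 16.3, 12.3, 13.0 and 15.5 CPM and at 35.4, 32.6, 34.4 and 27.5 CPM, respectively. Tpi1, which interconverts the triose phosphates, was at 372, 294, 328 and 328 CPM. Pgk1, which catalyses the first ATP-yielding step, had 282, 263, 275 and 252 CPM, and Eno1, an enolase, had 149.96, 134, 174 and 129.6 CPM. None of these separated the groups. The transporters Slc16a1 and Slc2a3 were at 30.7, 25.5, 26.6 and 18.6 CPM and at 16.3, 20.1, 14.2 and 31.6 CPM, with Yoda1 2 lowest in Slc16a1 and highest in Slc2a3. Among the hypoxia response genes, Hif1a was at 28.9, 32.1, 28.8 and 38.7 CPM, Egln1 at 43.3, 46.9, 45.5 and 50.2, Pdk1 at 37.1, 39.2, 38.0 and 55.2 and Mxi1 at 25.5, 28.7, 25.6 and 32.4. In each of these 4 the Yoda1 2 value was the highest and the Yoda1 1 value lay within or below the controls. The mitophagy receptors Bnip3 and Bnip3l were at 10.7, 12.2, 10.8 and 14.3 CPM and at 92.9, 94.9, 80.2 and 97.4 CPM, and Pfkfb3 at 11.9, 11.5, 9.99 and 12.1 CPM. The members under a mean of 10 CPM were Aldoc, Eno2, Slc16a3, Slc2a1 and Vegfa, which ranged from 0.068 to 9.32 CPM in the 4 libraries.

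Within the gates no member was called either: 0 of 31 in stem-, megakaryocyte-, erythroid-, lymphoid- and Flt3-gated cells, 0 of 30 in granulocyte-gated and 0 of 29 in monocyte and dendritic gated cells, where 0% of genes were called in each. At an unadjusted p under 0.05 edgeR counted 3, 1, 0, 1, 2, 1 and 2 members in the stem, megakaryocyte, erythroid, granulocyte, monocyte and dendritic, lymphoid and Flt3 gates. The shares of all genes at that threshold are not given for the gates, so these counts are not a result about the members. With the replicate number as a block the count of adjusted calls was also 0 in each. The test for a Yoda1 effect that differs between stem-gated and other cells called 0 of 32 members, against 11 of 17463 genes (0.063%), and 0 members had an unadjusted p under 0.05. With 2 libraries per group and this spread, a missed threshold does not show that levels were equal.
In the stem gate, Mxi1 and Pkm were above both controls in both Yoda1 libraries (11.2% of 8730 genes), and Egln3, Gpi1, Hk3, Ndrg1 and Pgam1 below both (11.4%), of 27 members with a mean of at least 10 CPM. Egln3, the hydroxylase, was at 14.8, 17.2, 11.7 and 11.8 CPM in the stem gate, 30.6, 32.4, 22.2 and 23.3 CPM in the granulocyte gate and 20.4, 20.3, 14.4 and 14.7 CPM in the Flt3 gate, and both Yoda1 libraries lay below both controls in each of these. The log2 fold change was -0.46 (SE 0.18) in stem-gated, -0.46 (SE 0.18) in Flt3-gated and -0.99 (SE 0.29) in monocyte and dendritic gated cells, with unadjusted p = 0.0356, 0.033 and 0.0115 (adjusted p = 1 in each by edgeR). In the monocyte and dendritic gate the values were 26.7, 23.1, 13.8 and 8.88 CPM. Of all genes at that level, 21.9% lay below both controls in the granulocyte, 17.3% in the Flt3 and 16.2% in the monocyte and dendritic gate. In the erythroid gate, where Egln3 was near 0 in all libraries (2.24, 1.80, 1.99 and 0.831 CPM), the groups overlapped. Ndrg1 was lower in both Yoda1 libraries than in both controls in each of the 7 gates, although not over all cells (48.4, 53.3, 38.3 and 53.6 CPM), where Yoda1 2 was as high as the controls. In single gates 11.4% to 21.9% of genes lay so (16.4% in the megakaryocyte, 17.3% in the erythroid and 20.4% in the lymphoid gate). Of the 6907 genes with at least 10 CPM in every gate, 7 did so in all 7 gates (0.101%). Ndrg1 was singled out after its values were seen. It was at 114, 116, 80.2 and 78.6 CPM in megakaryocyte-gated cells (log2 fold change -0.52, SE 0.12, unadjusted p = 0.00158, adjusted p = 0.999 or above by edgeR). The Yoda1 values were close to each other. In stem-gated cells it was at 66.4, 80.9, 52.6 and 61.1 CPM (log2 fold change -0.39, SE 0.15, unadjusted p = 0.0326). In Flt3-gated cells it was at 72.8, 82.8, 56.5 and 59.8 CPM (log2 fold change -0.39, SE 0.13, unadjusted p = 0.0188). By the sign of the log2 fold change alone, 5 members were higher with Yoda1 in all 7 gates (Eno1, Hk2, Mxi1, Pfkp and Slc2a1). Of the others tested in all 7 gates, 3 were lower in each (Egln3, Hk3 and Ndrg1) and 21 were mixed. Mxi1 and Slc2a1 each lay above both controls in 3 gates, Slc2a1 at a mean of at most 9.28 CPM in any gate. The share of all genes with the same sign in every gate was not counted. The gates come from the same 4 libraries, so their values are not independent of each other. The difference of the Yoda1 effect between stem-gated and other cells was -0.19 (SE 0.10) for Ndrg1 and -0.018 (SE 0.14) for Egln3 on the log2 scale (adjusted p = 1 and 1 by edgeR).

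**Figure D5:**
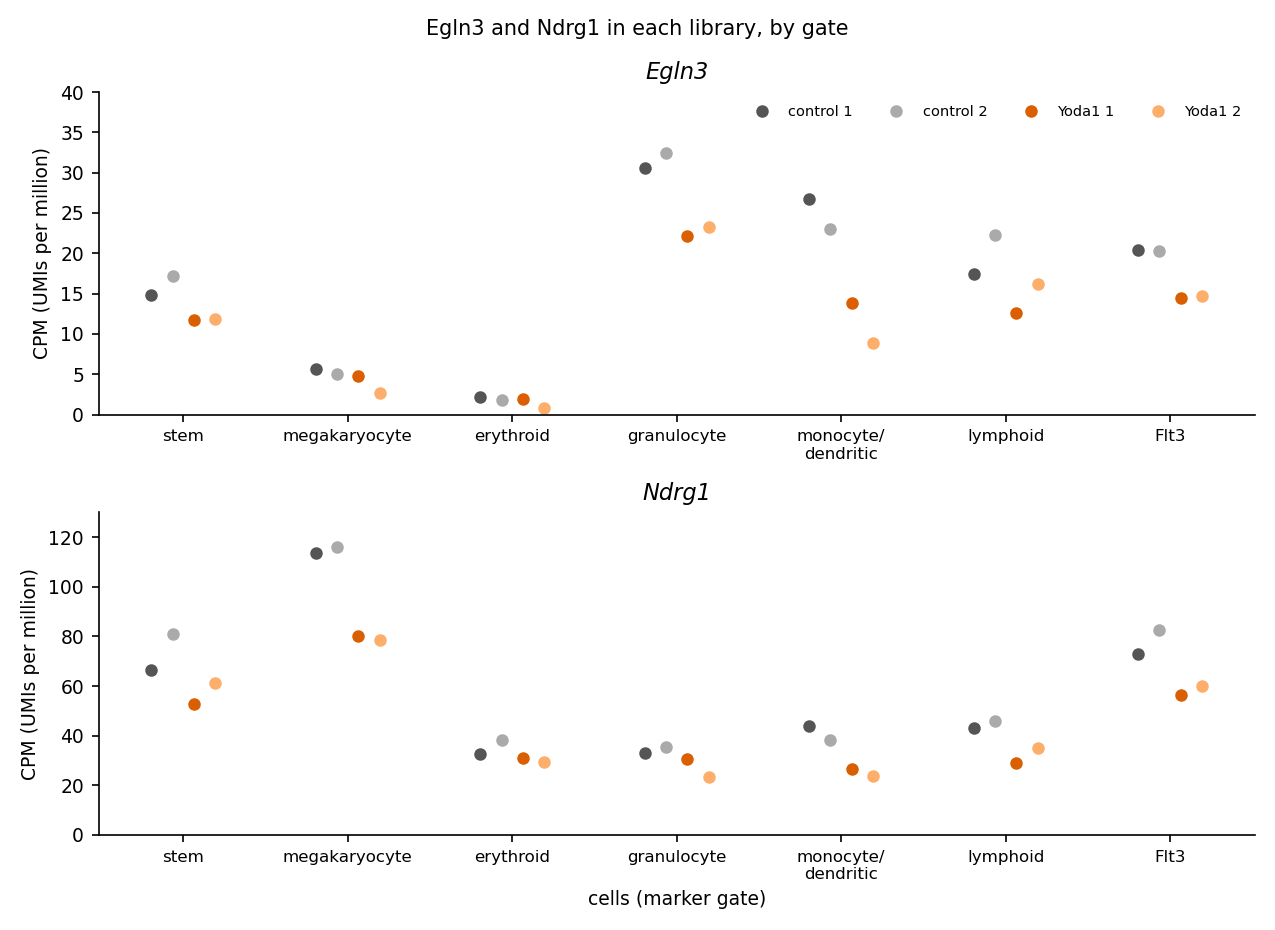
Egln3 (upper panel) and Ndrg1 (lower panel) in CPM (vertical axes) in 7 marker gates, 1 point per library. For Ndrg1 both Yoda1 points lie below both control points in every gate, in megakaryocyte-gated cells at 78.6 and 80.2 against 114 and 116 CPM, and no gate passed the test after adjustment.

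Eno1 was at 166, 170.0, 209 and 279 CPM in granulocyte-gated cells, above both controls in both Yoda1 libraries (10.2% of genes in that gate). It also lay above both controls in the Flt3 gate (9.44% of genes there) and overlapped in stem-gated cells (117, 105, 151 and 117 CPM). Ldhb in stem-gated cells overlapped between the groups (59.8, 76.3, 53.3 and 105 CPM; log2 fold change 0.20, SE 0.28, adjusted p = 1), with Yoda1 2 highest and Yoda1 1 lowest, as it was over all cells. Of the other pathway genes, 0 of 56 tested were called over all cells and 0 of 52 in stem-gated cells.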

How the data were processed

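The 4 libraries hold UMI counts of sorted LSK cells from wild-type mice, 2 from vehicle (control) and 2 from Yoda1-treated animals. The deposited matrices hold whole-number UMI counts per gene and cell that the authors made with Cell Ranger 7.1.0, per the file headers; Seurat 4.3.0 and build GRCm38 (mm10) are listed in the submitters' processing notes. The labels mention both 10x Genomics and a Singleron microwell system, so the capture platform is not settled, and the aligner's settings are not given in the sources used here.

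Kept cells had 500 genes or more, 1000 UMIs or more and no more than 10% mitochondrial UMIs (7620 to 9756 per library, 89058521 to 110493533 UMIs). No doublet caller was run; cells that met 2 or more lineage gates, 575 to 2740 per library, were left out of the gates other than the stem gate. Gates used raw UMIs: stem, Hlf at least 1 and Procr plus Mecom at least 1, with priority; megakaryocyte, Pf4, Itga2b and Gp9 at least 3; erythroid, Gata1, Klf1 and Car1 at least 2; granulocyte, Elane, Prtn3 and Ctsg at least 30 per 10000; monocyte and dendritic, Irf8, Ly86 and Csf1r at least 5; lymphoid, Dntt, Il7r and Rag1 at least 2; Flt3, at least 1 in cells of no other gate. Mast and B-lineage gates had fewer than 50 cells in a library and were not compared. Cycling cells had at least 2 UMIs of Mki67, Top2a, Birc5, Ube2c, Cdk1, Ccna2, Ccnb1 and Ccnb2, and non-cycling cells had 0.

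Counts were summed per library and gate and tested with edgeR 4.0.16 in R 4.3.3 (quasi-likelihood test, TMM scaling, filterByExpr, Benjamini-Hochberg adjustment over all genes tested, threshold 0.05). The SE is the log2 fold change divided by the root of the F statistic. Yoda1 was compared with control over all cells and within 7 gates; gates and cycling classes were compared within libraries as blocks. CPM are counts per 1000000 UMIs of the sum. Isozyme shares carry exact 95% binomial intervals for counting error. The all-cell Yoda1 fit and the cycling fit were run on simulated counts with the same dispersion for every gene. The fit over the gates was not checked in this way. Of the 2 entries named Aldoa, ENSMUSG00000030695 was tested. Alternatives were RLE scaling, library totals, no filter, a stricter cell filter, every barcode, DESeq2 1.42.0, limma 3.58.1 (voom), the replicate block, each library left out, a stricter stem gate, and cells thinned to 3000 UMIs; thinning after gating and stem-gated cells of no other gate were added after seeing the data. The members, lists and tests were chosen with earlier results of these data known. Values per library are given for members with a mean of at least 10 CPM. For gates and cycling, members called are named, or the 4 largest in each direction where over 8 are called, with any called in opposite directions, and further members of the families described; of the other pathway genes, up to 3 with the smallest p in each direction.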

Additional observations from a re-analysis of the deposited data

Results flagged for a closer look

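Aldoa, Bnip3l and Hif1a had both Yoda1 libraries on one side of both controls in one gate and on the other side in another, and the difference between the gates was not tested. For Aldoa the Yoda1 libraries lay above the controls in the granulocyte and Flt3 gates, with a log2 fold change of up to 0.23, and below them in the erythroid gate. For Bnip3l they lay above in the Flt3 gate (0.18) and below in the erythroid and lymphoid gates. For Hif1a they lay above in the erythroid gate (0.22) and below in the granulocyte gate. The lowest log2 fold change in any of the 7 gates was -0.013 for Aldoa, -0.15 for Bnip3l and -0.16 for Hif1a. Of all genes with at least 10 CPM, 10.2% lay above and 21.9% below both controls in the granulocyte gate, 12.7% and 17.3% in the erythroid gate, 9.44% above in the Flt3 gate and 20.4% below in the lymphoid gate. None of these members passed the edgeR test in any gate.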

How the results depend on the processing

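Of the counts and sums reported, 217 values under an alternative stayed within 1.5 times the main count or within 1 SD and 16 moved. Of single members' values, 168 lost a call, 3 gained one and 11 reversed. Another 2124 kept their side of the threshold, with the same direction or, if uncalled, a turned sign within 1 SE of the main value. The remaining 30 were uncalled values whose sign turned by 1 SE or more. Called members over all cells, Yoda1 against control, ranged from 0 to 3 when 1 library was left out (3 without Yoda1 1). For Flt3- against stem-gated cells the count of 5 became 3 with library totals, 3 with no filter, 9 with cells thinned before gating, 0 with cells thinned after gating, 9 with stem-gated cells of no other gate (1 of the 5 among them), and 0 to 4 with 1 library left out. For cycling the count of 20 became 9 with cells thinned before gating. The shares of all genes called under these alternatives are not given here, so these counts are not a result about the members. With cells thinned before gating the sign turned for Pgam1 in megakaryocyte-gated (0.015), Pgk1 (0.085) and Gpi1 (0.061) in erythroid-gated, Egln3 in monocyte and dendritic gated (-0.29) and Ldha in lymphoid-gated cells (0.23), and for Eno1 (-0.0011), Pkm (-0.16) and Hk3 (-0.15) in cycling cells. With stem-gated cells of no other gate it turned for Pgk1 (0.057), Gpi1 (0.062) and Ldha (0.17) in the same gates. The log2 ratio of summed member UMIs over stem-gated cells moved, with cells thinned before gating, to 0.16 (megakaryocyte), -0.081 (erythroid), 0.70 (granulocyte), -0.059 (lymphoid) and 0.062 (Flt3), and without Gapdh to -0.042 (monocyte and dendritic). The cause was not tested. Depth limits the granulocyte and the monocyte and dendritic gates of Yoda1 2 most (67 and 88 cells).

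With the replicate number as a block, 0 members were called over all cells, while 1367 genes in place of 309 had an unadjusted p under 0.05. The control and Yoda1 libraries of the same number deviated together (r = 0.503 across 13109 genes, which are not independent replicates), but nothing in the labels says that the numbers pair the libraries.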

Other observations

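Cells that entered no comparison had the following summed member UMIs per 10000, in the order control 1, control 2, Yoda1 1 and Yoda1 2. Mast and basophil gated cells had 44.4, 45.3, 44.4 and 53.1, and B-lineage-gated cells 45.5, 46.0, 35.5 and 51.5, from as few as 3 cells in a library. Cells that met 2 or more lineage gates had 57.5, 58.3, 59.3 and 55.1, above stem-gated cells in every library. Barcodes that failed the cell filter had 41.0, 31.0, 29.1 and 27.1.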
